A study of Homo sapiens with 4 samples.

Results

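The splicing factor genes are the 76 protein-coding genes, of 20046 in the GENCODE 44 annotation of GRCh38, whose symbols start with SRSF, HNRNP, SF3A, SF3B, SNRP, PRPF or U2AF. The rule uses their names and no measured value. Their RNA polymerase II (RNAPII)-linked DNA loops were taken from POLR2A HiChIP-seq of HepG2 cells, a human hepatocellular carcinoma line, in which DNA contacts are ligated and those bound by POLR2A, the largest subunit of RNAPII, are enriched with an antibody. One group of cells was mock-treated with sterilized water and the other was treated with 20 μM pyridostatin (PDS), a small molecule that binds guanine quadruplex (G4) structures, both for 24 h before cross-linking. Each condition had 2 biological replicates, 4 libraries in all, and 1 list of loops per condition was deposited. A loop joins a pair of DNA intervals, its anchors, and its strength is the number of paired-end tags (PETs) that link them. Both lists start at 3 PETs, so a loop that is not listed can still have up to 2. A loop was assigned to a gene where an anchor lay within 1 kb of the start site of any annotated transcript of that gene, which gave 222 distinct loops at splicing factor genes of 77862 in both lists and of 34950 at the promoters of all protein-coding genes.

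The spliceosome removes introns from precursor mRNA. Its building blocks are small nuclear ribonucleoproteins (snRNPs), which carry the SNRP proteins, and the SF3A and SF3B complexes of the U2 snRNP hold the branch site of the intron, to which U2 is guided by the U2 auxiliary factor, U2AF. The PRPF proteins, known from yeast mutants of precursor mRNA processing, assemble and rearrange the complex. SRSF proteins bind exons through RNA recognition motifs and in general promote the use of a splice site, whereas many HNRNP proteins bind nascent RNA and can block splice sites. Genes of this kind are active in most cell types and many are transcribed from GC-rich promoters, in which runs of guanine can fold into G4 structures.

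Sequences able to fold in this way were predicted as motifs of 4 G runs, each 3 or more bases long, separated by 1 to 7 bases, and both strands were searched. Within 1 kb of the canonical start site, 44 of the 76 splicing factor genes held such a motif, or 57.9% (46.7 to 68.4%, 95% Wilson interval), against 68.6% of all protein-coding genes. The 6 motifs below belong to genes with many mock PETs and a motif of at most 30 bases. They are shown because they are the kind of sequence that PDS binds when it is folded. Each is read 5′ to 3′ from GRCh38 on the strand that carries the G runs, which stand in capitals.
HNRNPC, chr14:21269835-21269858, + strand: GGGGGcGGGGaaaGGGttgaGGGG
HNRNPA3, chr2:177212932-177212958, + strand: GGGagcGGGGaggccGGGtggaccGGG
SRSF7, chr2:38751568-38751597, - strand: GGGGagaggaGGGGGcGGGacagcatGGGG
HNRNPM, chr19:8445452-8445475, + strand: GGGaGGGtgacctcGGGGGccGGG
HNRNPF, chr10:43409058-43409083, - strand: GGGGGtGGGGacgcGGGctccttGGG
PRPF6, chr20:63980802-63980826, + strand: GGGaGGGGGccatGGGttcagaGGG

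The motifs at HNRNPC, SRSF7 and PRPF6 lie upstream of the canonical transcript, with centres 404, 222 and 318 bp from its start site. Those at HNRNPA3, HNRNPM and HNRNPF lie in intron 1 of the canonical transcript, 151, 488 and 116 bp downstream of the start. The sequence of HNRNPC lies on the strand opposite to the gene, and the other 5 lie on the strand of the gene. Over all 98 motifs at splicing factor genes, 70 were on the strand of the gene (71.4%), compared with 54.8% of the 40702 motifs at all protein-coding genes. Several motifs of 1 gene are not independent of each other: PRPF40B alone had 7 and HNRNPF had 6. Motifs were counted per gene, and the motif at HNRNPUL2 was counted again for an overlapping member. HNRNPLL, HNRNPD, SF3B3, PRPF18, SRSF1, SNRPA1, SNRPB, SNRPB2 and HNRNPA1, all among the genes with most PETs, held no motif in this window.

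In mock-treated cells, 55 of the 76 splicing factor genes had at least 1 loop, compared with 59.8% of all protein-coding genes, and these loops numbered 213 with 846 PETs. Splicing factor genes had a median of 9 annotated transcripts and all protein-coding genes 6, so more start sites were searched per gene. With canonical start sites only, 45 of the 76 genes had a mock loop, and the mock loops numbered 115. That count of genes was not made over all protein-coding genes. After PDS treatment 16 genes had a loop, compared with 28.7% of all protein-coding genes, and the PDS list had 27 loops with 92 PETs at these genes. The PDS/mock ratio of loop numbers was 0.127 (0.0852 to 0.189, 95% interval from the PDS share of the combined count), and that of PETs was 0.109 (0.0877 to 0.135), against 0.228 at all protein-coding promoters. At all protein-coding promoters, the mock list had 30535 loops and the PDS list 7768, a ratio of 0.254 (0.248 to 0.261). Counted once for each gene and loop, the ratios were 0.125 and 0.247. The interval at splicing factor genes lay below that of all promoters. These intervals cover counting error only, because the replicates of a condition were combined before deposition and their spread is not known, so no test between conditions was possible. Library depth is unknown, and a difference in depth between the conditions and an effect of PDS on all loops cannot be told apart. Whether depth acts alike on splicing factor genes and on other promoters was not tested.

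Of the 55 genes with a mock loop, 39 had no PDS loop (70.9%), compared with 56.4% of all protein-coding genes with a mock loop. At least 15 mock PETs were found at 17 splicing factor genes, and 9 of these (52.9%) had no PDS loop, whereas 24.8% of all genes with as many mock PETs had none. These 9 genes were HNRNPLL, HNRNPM, SF3B3, PRPF18, SRSF1, SNRPA1, PRPF6, HNRNPA1 and SNRPB2. Summed PETs were lower in PDS-treated than in mock-treated cells at 54 of the 55 genes and equal at SNRPD2. These genes were taken for having a mock loop, which favours a lower PDS sum, and the same count was not made over all genes. No splicing factor gene had PDS loops without having mock loops, and only 521 of all 20046 protein-coding genes did.

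**Figure D1:**
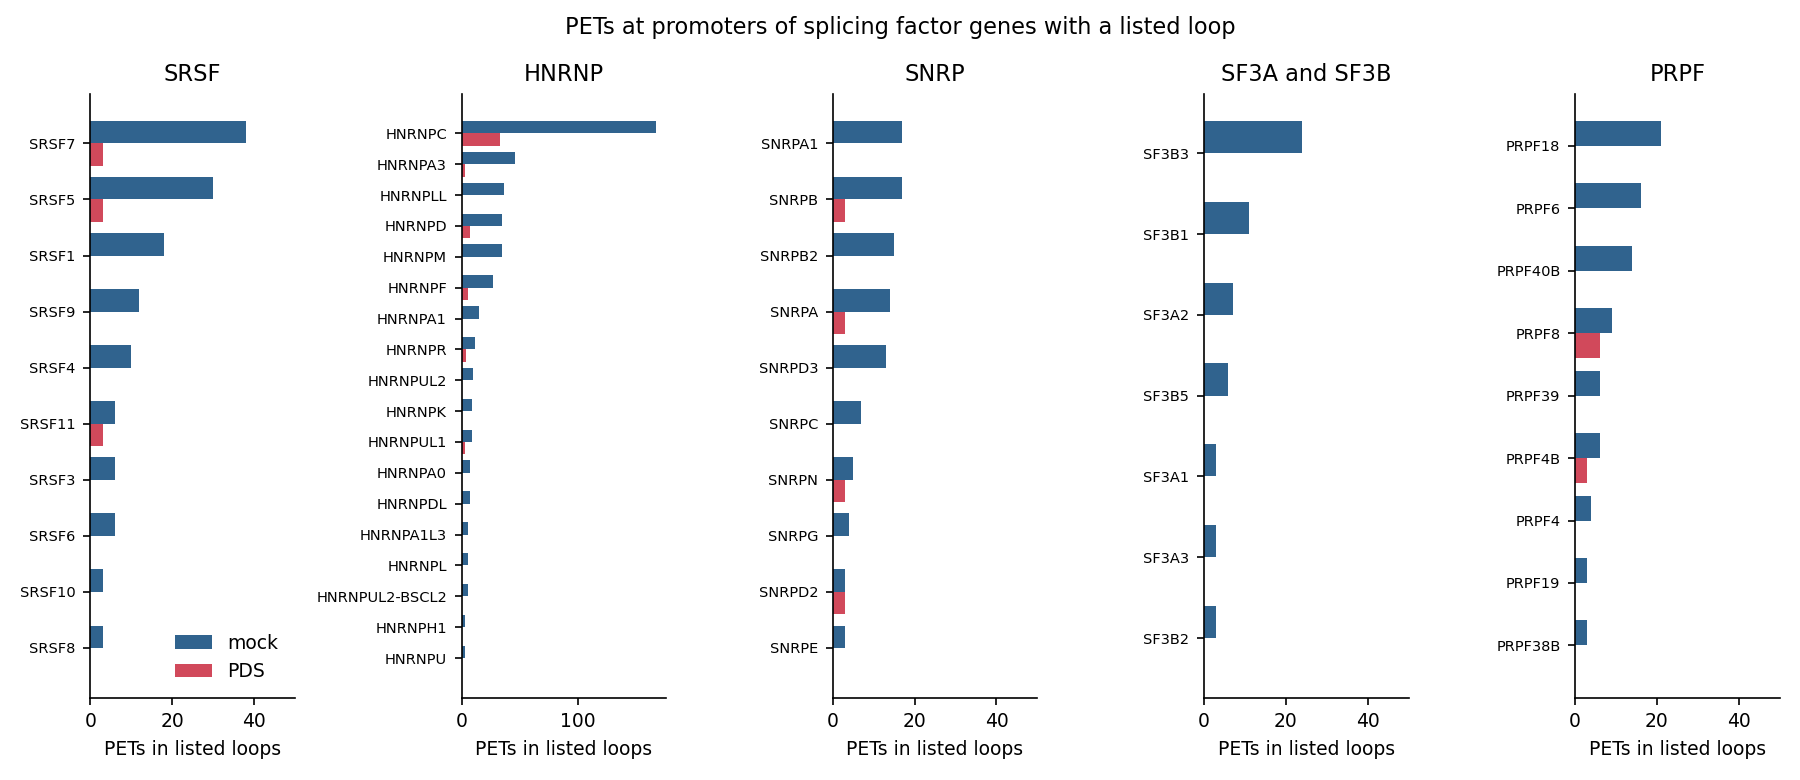
Summed PETs of the listed loops at each splicing factor gene with a loop (1 gene is not shown), in mock-treated (blue) and PDS-treated (red) cells, in 1 panel per gene family with PETs on the horizontal axis (the HNRNP panel has a longer scale). A gene without a red bar had no listed PDS loop; HNRNPC, with 168 mock and 33 PDS PETs, stands far from the other genes, of which HNRNPA3 is next with 46 and 3.

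HNRNPC, which binds uridine-rich stretches of nascent RNA, had by far the most signal of the family. Its 34 mock loops held 168 PETs, and its 8 PDS loops held 33. All 8 were also in the mock list. The gene ranked 7 of 20046 by mock PETs summed over its start sites, but it has 32 annotated transcripts along 60 kb, so that loops inside the gene count too. The strongest loop of any splicing factor gene joined chr14:21255081-21259331 with chr14:21260151-21271039, an anchor in the gene body with the one that holds the canonical start, 8.39 kb apart. It had 20 PETs in the mock list and 5 in the PDS list. The next strongest loop of HNRNPC, from the 3′ part of the gene to a promoter of the long non-coding RNA LINC00641, had 9 and 5 PETs. Only 1 HNRNPC loop had more PETs after PDS, with 6 in mock-treated and 7 in PDS-treated cells, and it joined a pair of start sites inside the gene 10.9 kb apart. A pair of loops to RPGRIP1, a neighbouring gene for a protein of the photoreceptor cilium, had 7 PETs each in mock-treated cells and were not listed after PDS.

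**Figure D2:**
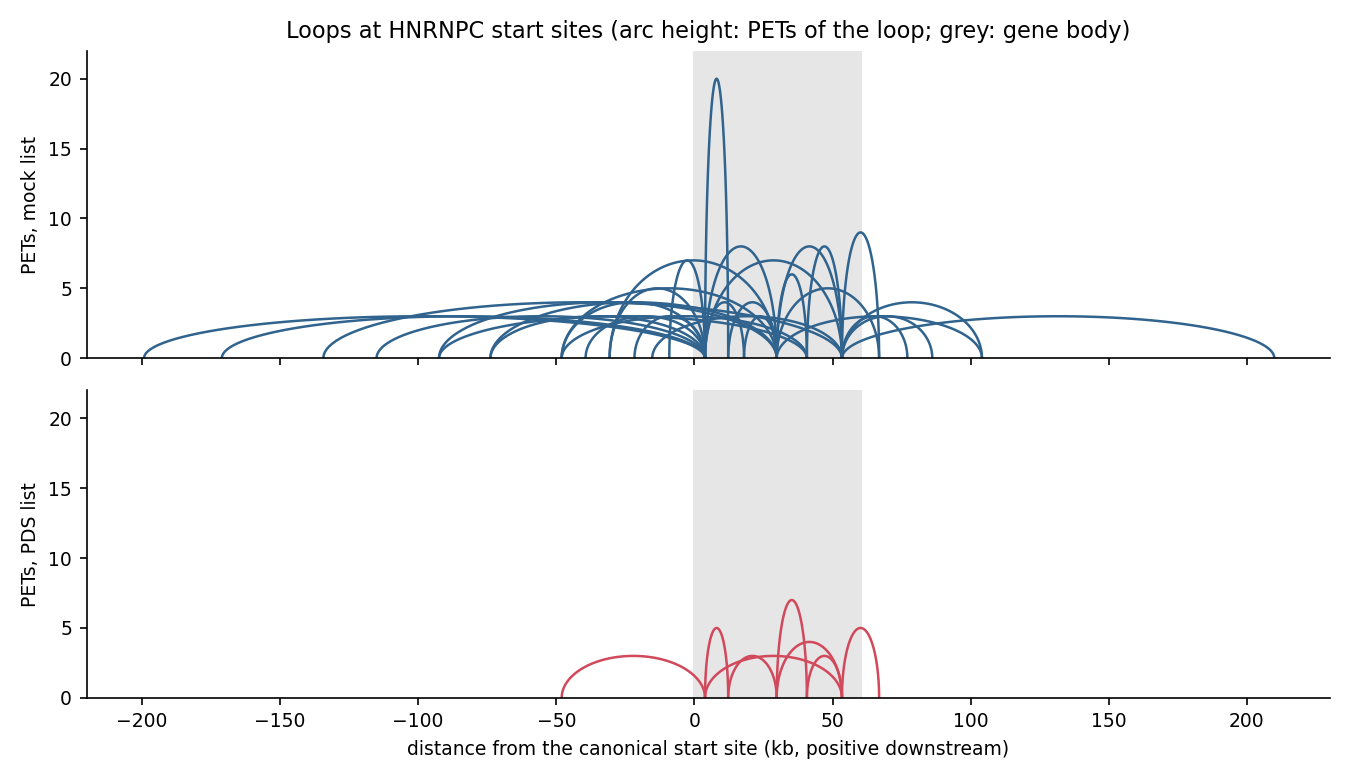
Loops at HNRNPC in mock-treated (top) and PDS-treated (bottom) cells; the horizontal axis is the distance from the canonical start site in kb, positive downstream, the height of an arc is its PETs and the grey band is the gene. Of 34 loops in the mock list 8 are in the PDS list, none of them longer than 51.9 kb, and the tallest arc goes from 20 to 5 PETs. The mock loop of 1501 kb lies outside the axis and is not drawn.

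HNRNPC lies in a part of chromosome 14 with many loops. Between 20 and 40 Mb, the median of 193 protein-coding genes was 21 mock PETs and HNRNPC ranked 6. Promoters of that region had a PDS/mock ratio of loop numbers of 0.338 (0.3003 to 0.380), and HNRNPC had 0.235 (0.111 to 0.499), so the interval of the gene held the value of its surroundings. Without HNRNPC, the splicing factor genes had 179 mock loops and 19 PDS loops, a ratio of 0.106 (0.0664 to 0.170), and the ratio of PETs went from 0.109 to 0.0870. The 1 gene with most signal therefore raised the ratio of the family rather than lowering it.

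Among the HNRNP genes as a whole, 18 of 27 had a mock loop, and their 101 mock loops compared with 15 PDS loops, a ratio of 0.149 (0.0869 to 0.254). HNRNPA3, an RNA-binding protein close to HNRNPA1 and HNRNPA2B1, had 9 mock loops with 46 PETs and 1 PDS loop with 3 PETs. Its mock loops with most PETs had 8 each, and 1 of them joined both ends of the gene. HNRNPLL, a regulator of alternative splicing known from T cells, had 7 mock loops with 37 PETs and none in the PDS list. One of these, between its promoter anchor at chr2:38599679-38604799 and chr2:38607194-38612310, had 13 mock PETs and was the strongest splicing factor loop that was not listed after PDS. HNRNPM had 10 mock loops with 35 PETs, none of over 6, and no PDS loop. HNRNPD, also called AUF1, which binds AU-rich elements of mRNA, had 35 mock PETs in 9 loops and 7 PDS PETs in 2, and 1 loop of 7.88 kb was listed with 3 PETs in mock-treated and 4 in PDS-treated cells. HNRNPF, which binds G-rich RNA, had 27 mock PETs and 6 PDS PETs. HNRNPA1 had 15 mock PETs in 3 loops, and no PDS loop. Of these PETs 9 were in a loop between its promoter anchor and the 3′ part of the gene, 8.27 kb apart. Both anchors of this loop also held a start site of CBX5, the gene for heterochromatin protein 1 alpha. HNRNPR had 12 mock PETs in 3 loops and 4 PDS PETs in 1 loop that was not in the mock list. HNRNPUL2 had 10 mock PETs and none after PDS.

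The SRSF genes had 39 mock loops at 10 of 12 genes and 3 PDS loops, a ratio of 0.0769 (0.0252 to 0.235). Of these mock loops 76.9% were at the minimum of 3 PETs, against 55.4% at HNRNP genes. SRSF7 had 11 mock loops with 38 PETs and 1 PDS loop with 3 PETs. The loop that was kept ran 9.55 kb, from the 3′ end of SRSF7 to the anchor that holds its canonical start site and a start of GEMIN6 (named here after its values were seen), with 4 PETs before and 3 after PDS. Its strongest mock loops, of 5 PETs each, spanned 205 and 182 kb and were not listed after PDS. SRSF5 had 30 mock PETs in 8 loops and 3 PDS PETs in 1 loop. SRSF1, the first SR protein to be described, had 18 mock PETs in 5 loops and no PDS loop, and the strongest of these had 5 PETs over 156 kb. SRSF9 had 12 mock PETs and SRSF4 had 10, both without a PDS loop.

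The SNRP genes had 25 mock loops at 10 of 12 genes and 4 PDS loops, a ratio of 0.160 (0.0582 to 0.440). SNRPB, which encodes a core Sm protein, had 17 mock PETs in 4 loops, and its loop between both ends of the gene, 6.34 kb long, had 7 PETs in mock-treated and 3 in PDS-treated cells. SNRPA, a protein of the U1 snRNP, had 14 mock PETs and 3 PDS PETs. SNRPA1 and SNRPB2, both proteins of the U2 snRNP, had 17 and 15 mock PETs in 4 loops each and no PDS loop. The core Sm protein gene SNRPD3 had 13 mock PETs and none after PDS.

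All 9 genes of the SF3A and SF3B complexes were without a PDS loop within 1 kb of a start site, although SF3B2 (named after its values were seen) had 2 with start sites widened to 2500 bp. Of these genes 7 had mock loops, 15 in number with 57 PETs, and a PDS count of 0 against 15 allows a ratio of loop numbers of up to 0.256, just above the ratio at all promoters. SF3B3 had 24 mock PETs in 7 loops, of at most 4 PETs each. SF3B1, a protein that contacts the branch site and is often mutated in blood cancers, had 11 mock PETs in 2 loops of 6 and 5 PETs within its gene. SF3A2 had 1 mock loop of 7 PETs.

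The PRPF genes had 34 mock loops at 10 of 13 genes and 5 PDS loops, a ratio of 0.147 (0.0594 to 0.364). PRPF40B, a protein that binds the U1 snRNP, had 14 mock PETs and no PDS loop. PRPF18 and PRPF6 had 21 and 16 mock PETs and no PDS loop, although 1 loop of PRPF6 to its own gene body had 7. PRPF8, the large scaffold protein at the centre of the spliceosome, had 3 mock loops of 3 PETs each, and its 2 PDS loops, also of 3 PETs each, were not among them. None of the 3 U2AF genes had a loop in either list.

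In all, 21 splicing factor genes had no loop in either list: HNRNPA1L2, HNRNPA2B1, HNRNPAB, HNRNPCL1, HNRNPCL2, HNRNPCL3, HNRNPCL4, HNRNPH2, HNRNPH3, PRPF3, PRPF31, PRPF38A, SF3B4, SF3B6, SNRPD1, SNRPF, SRSF12, SRSF2, U2AF1, U2AF1L4 and U2AF2. With start sites widened to 2500 bp, 2 of them gained a mock loop, SNRPD1 and U2AF1L4. Reads from sequence that occurs more than once in the genome are often not placed. More than 50% of the 31-base sequences within 1 kb of the canonical start were repeated elsewhere in the reference at 5 of the 21 genes, HNRNPCL4 (97.3%), HNRNPCL3 (96.9%), U2AF1 (93.2%), HNRNPCL2 (57.9%) and HNRNPCL1 (55.2%), and at 0 of the 55 genes with loops. For these 5 genes the lists say little. The other 16 include genes of wide expression such as SRSF2, HNRNPA2B1 and U2AF2, for which a loop of 3 or more PETs was not detected.

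Of the 213 mock loops, 18 were also in the PDS list, or 8.45% (5.41 to 13.0%), compared with 11.0% of mock loops at all protein-coding promoters. The remaining 195 were listed in mock-treated cells alone. This rests on identical anchors in both lists, and with the anchors of both lists extended by 5 kb 25.4% were shared. The share with extended anchors was not computed for all promoters, so 25.4% cannot be set against 11.0%. The PDS list had 9 loops of its own at splicing factor genes, 8 with 3 PETs and 1, at HNRNPR, with 4. At all promoters 4415 loops were listed after PDS alone, against 3353 in both lists, so that shared loops made up 66.7% of PDS loops at splicing factor genes and 43.2% at all promoters. All 8 PDS loops of HNRNPC were shared, and without this gene the share at splicing factor genes was 52.6% of 19 PDS loops. Among the 18 shared loops, PETs were lower after PDS in 13, equal in 3 and higher in 2, at HNRNPC and HNRNPD. A shared loop has to reach the minimum in both lists, so its PETs cannot show a loss in full. Loops with 5 or more PETs numbered 46 in mock-treated and 3 in PDS-treated cells, and these 3 were all at HNRNPC.

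The share of loops found in both lists depends on their strength. With 3 mock PETs, 4 of 126 loops at splicing factor genes were shared (3.17%), compared with 5.47% at all promoters. With 4 mock PETs, 4 of 41 were shared (9.76%), compared with 11.6%. With 5 to 9 mock PETs, 9 of 44 were shared (20.5%, 11.2 to 34.5%), compared with 24.3%. In each of these classes the value of all promoters lay inside the interval of the splicing factor genes. At the shares of all promoters for each PET count, 24.6 of the 213 loops would have been shared in place of 18, and without HNRNPC 18.9 of 179 in place of 10.

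**Figure D3:**
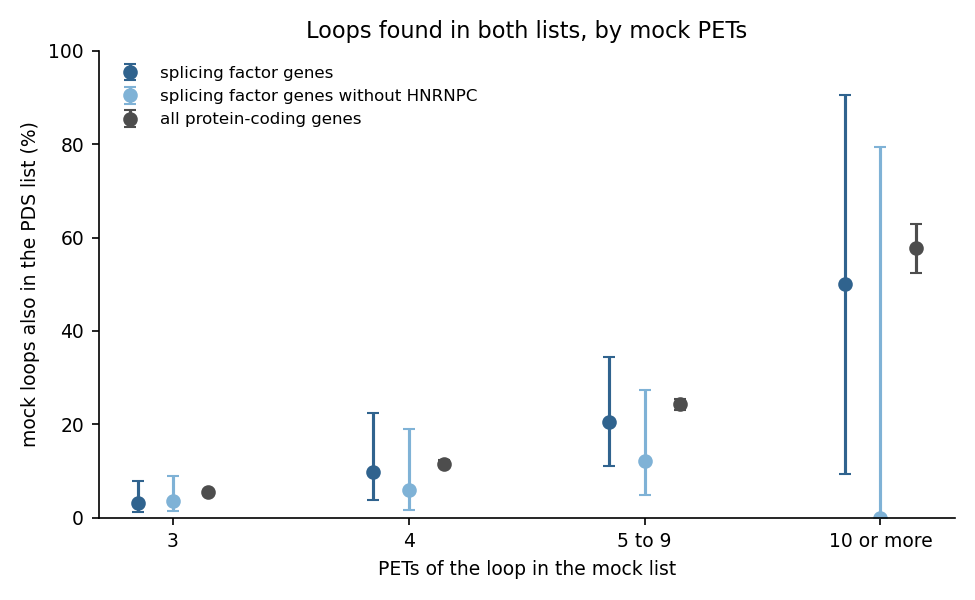
Percentage of mock loops that were also in the PDS list, by the PETs of the loop in mock-treated cells, for splicing factor genes (dark blue), the same without HNRNPC (light blue) and all protein-coding genes (grey), with 95% Wilson intervals. The share increases from 3 to 9 PETs in all sets; at 5 to 9 PETs it is 20.5% at splicing factor genes, 12.1% without HNRNPC and 24.3% at all protein-coding genes, and 10 or more PETs are reached by 2 splicing factor loops.

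Long loops of splicing factor genes were absent from the PDS list. Of 38 mock loops over 100 kb, none was listed after PDS, nor was any other loop of that length, and a count of 0 allows a ratio of up to 0.101. At all protein-coding promoters, 4208 mock loops and 966 PDS loops were over 100 kb, a ratio of 0.230. Between 20 and 100 kb, the splicing factor genes had 92 mock and 10 PDS loops (0.109, 0.0572 to 0.206), where all promoters had a ratio of 0.251. Up to 20 kb they had 83 and 17 loops (0.205, 0.122 to 0.343), where all promoters had 0.264, inside that interval. The median distance was 27.5 kb in mock-treated and 13.2 kb in PDS-treated cells, compared with 19.9 and 19.0 kb at all promoters. The same held without HNRNPC, with 29 mock loops and 0 PDS loops over 100 kb (up to 0.133) and a ratio of 0.160 (0.0878 to 0.292) up to 20 kb. Limits of distance were chosen with earlier values of these data known, and the interaction of distance and gene set was not tested.

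**Figure D4:**
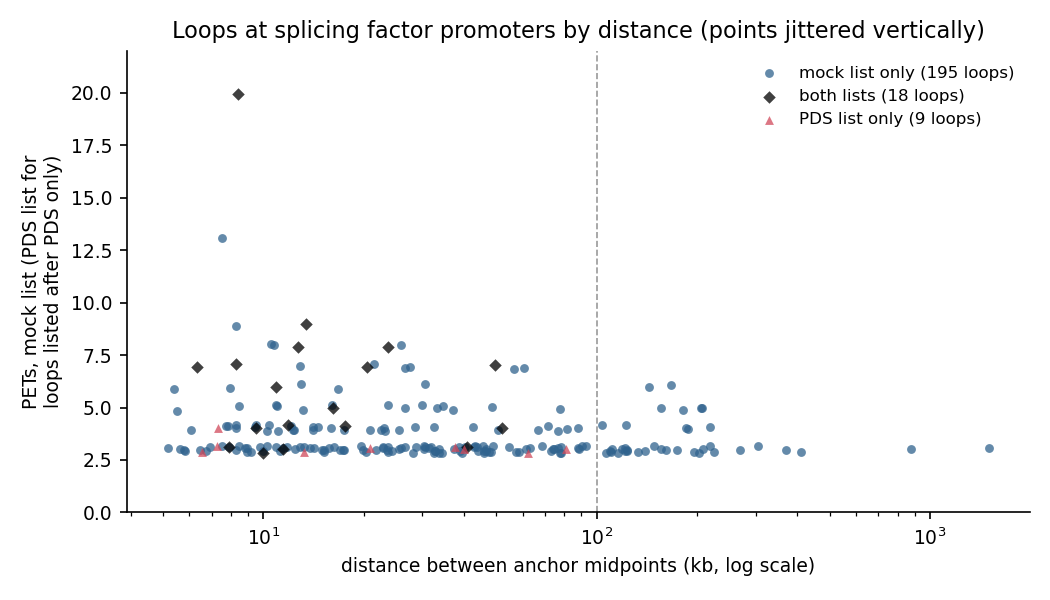
Each loop at a splicing factor gene by the distance between its anchor midpoints (kb, log scale) and its PETs in the mock list, or in the PDS list for loops found after PDS alone; points are jittered vertically. Loops in both lists (black) and in the PDS list alone (red) all lie left of the dashed line at 100 kb, and 38 of the 195 loops of the mock list alone (blue) lie to its right.

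Of the 213 mock loops, 74 (34.7%, 28.7 to 41.4%) had a promoter of another protein-coding gene in the other anchor. Counted per gene and loop, this was 76 of 216 pairs (35.2%), compared with 30.8% of such pairs at all genes. After PDS treatment 5 of 27 loops had such a promoter (18.5%, 8.18 to 36.7%), an interval that held the 28.4% of PDS pairs at all genes. Loops whose anchors both held start sites of the same gene numbered 22 in the mock list and 8 in the PDS list (ratio 0.364), and 4 of the 8 were at HNRNPC. Loops to the gene's own body numbered 31 and 4, to the body of another gene 47 and 5, to a promoter of a long non-coding RNA 10 and 1, and to sequence outside protein-coding genes 29 and 4. A promoter of a non-member also lay in the near anchor of 50 of the 213 mock loops, so these loops cannot be assigned to the splicing factor gene alone. A pair of splicing factor genes was joined by 1 loop, between HNRNPLL and SRSF7 on chromosome 2, over 148 kb, with 3 PETs in mock-treated cells and none listed in PDS-treated cells. The anchor at SRSF7 also holds the start of GEMIN6.

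The study asked whether G4 structures are tied to RNAPII-linked loops, and here loops were compared by the predicted motifs alone. The 44 genes with a motif within 1 kb of the canonical start had 145 mock and 20 PDS loops, a ratio of 0.138 (0.0868 to 0.219). The 32 genes without one had 69 and 7 loops, a ratio of 0.101 (0.0475 to 0.217). The intervals overlap widely, and at all protein-coding genes the ratios with and without a motif were 0.254 and 0.248. HNRNPC alone gave 34 of the mock loops and 8 of the PDS loops of the genes with a motif. Loops at any start site of a gene were counted, also where that site lay far from the motif. With the motif sought anywhere in the anchor at the start site, the ratios at splicing factor genes were 0.157 (0.0993 to 0.247) with and 0.0759 (0.0339 to 0.170) without a motif. These intervals overlap too, and at all protein-coding genes the ratios by this definition were 0.252 with and 0.262 without a motif. A motif is a sequence match and not a measured G4 structure. The share of genes with a motif also depended on the definition: within 250 bp it was 26.3% at splicing factor genes and 46.6% at all genes, and with spacers of up to 12 bases within 1 kb it was 81.6% and 82.1%.

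The low ratio was set beside that of other sets of widely expressed genes. The other spliceosome genes, 80 genes for further proteins of the spliceosome and its regulators, had 224 mock and 47 PDS loops, a ratio of 0.210 (0.153 to 0.287). The 92 ribosomal protein genes had 151 and 27 loops, a ratio of 0.179 (0.119 to 0.269), and the 50 proteasome genes had 158 and 36, a ratio of 0.228 (0.159 to 0.327). The ratio of the splicing factor genes was the lowest of these, but its interval (0.0852 to 0.189) overlapped those of the other 3 sets. The ratio of PETs, 0.109 (0.0877 to 0.135), lay below the intervals of the other spliceosome genes (0.143 to 0.202) and the proteasome genes (0.166 to 0.242) and overlapped that of the ribosomal protein genes (0.121 to 0.187). PETs of 1 loop are not independent, since a loop enters the list with all its PETs or none, so these intervals are too narrow. Among the other spliceosome genes, 60 of 80 had a mock loop and 32 of these 60 had no PDS loop. The most PETs in that set were at the helicase gene DHX8, with 70 in mock-treated and 12 in PDS-treated cells (named after its values were seen). Of the ribosomal protein genes with at least 15 mock PETs, 7 of 13 had no PDS loop, as did 7 of 24 other spliceosome genes and 2 of 15 proteasome genes.

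**Figure D5:**
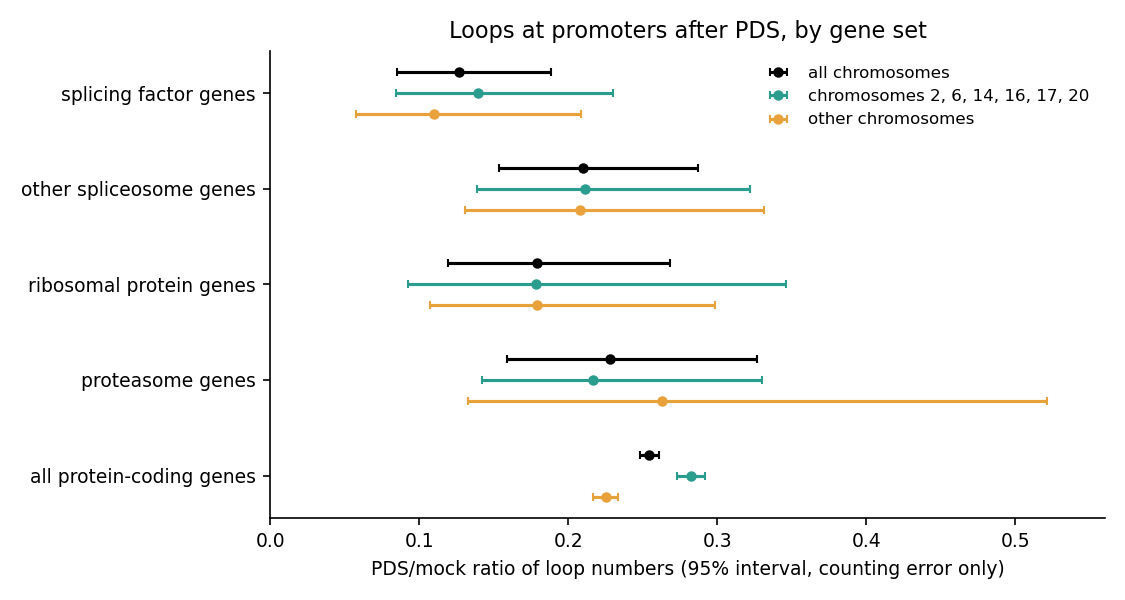
PDS/mock ratio of loop numbers (horizontal axis) for the splicing factor genes, 3 comparison sets and all protein-coding genes, over all chromosomes (black), on chromosomes 2, 6, 14, 16, 17 and 20 (green) and on the others (orange), with 95% intervals for counting error only. The splicing factor genes lie at 0.127, 0.139 and 0.110, below all protein-coding genes at 0.254, 0.282 and 0.225, with intervals that overlap those of the comparison sets.

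HepG2 cells are known to carry extra copies of all or part of chromosomes 2, 6, 14, 16, 17 and 20. On these chromosomes the splicing factor genes had 122 mock and 17 PDS loops, a ratio of 0.139 (0.0843 to 0.230), compared with 0.282 at all promoters there. On the other chromosomes they had 91 and 10 loops, a ratio of 0.110 (0.0578 to 0.209), compared with 0.225. The ratio at splicing factor genes was therefore below that of all promoters in both groups of chromosomes. As a check of the cell type, 9 of 10 hepatocyte genes had a mock loop, but so did 6 of 8 genes of other cell types, so listed loops do not tell cell types apart.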

How the data were processed

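The data are POLR2A HiChIP-seq of HepG2 cells with 2 biological replicates each of mock-treated and PDS-treated cells. The authors aligned reads to GRCh38 and, per the labels, used HiC-Pro 3.1.0 to assign them to MboI fragments. They deposited 1 list of loops per condition, in which each loop has its unscaled PET counts. The caller of the loops, its parameters and the way replicates were combined are not given in the sources used here. All 270 anchors at splicing factor genes ended at MboI sites, with a median width of 5511 bp (1274 to 29921). A promoter is therefore located only to its anchor. MboI sites inside the anchors were not counted, so an anchor can span several fragments.

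Each list was read as deposited. A loop was shared where both anchors were identical in both lists. Ratios have 95% intervals computed with scipy 1.17.1 as Wilson intervals of the fraction of mock plus PDS loops, or PETs, that were in the PDS list. Sequences were read from GRCh38 with pysam 0.24.0. No test between conditions was made, since there is 1 list per condition. Counting, interval and motif functions were tested on simulated data. Alternatives were wider or narrower start sites, canonical transcripts, PET minimums, distances, chromosomes, anchors, motif definitions and leaving out HNRNPC.

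Named were the 25 genes with most mock PETs, the leading gene of each symbol group, the 5 with most PDS PETs, those with at least 15 mock PETs and the most extreme ratios, those with no loop, and genes at the other anchor of the strongest loops; any other gene was named after its values were seen. By this rule 1 gene and 2 motif sequences would have been named that are not reported here, and the gene stays in all counts. The members and lists were chosen with earlier results of these data known.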

Additional observations from a re-analysis of the deposited data

How the results depend on the processing

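Of 56 values recomputed under another choice, 41 stayed within counting error (or, for counts of genes, within a set limit), 15 moved further and 0 reversed. The count of 0 is no evidence of robustness. Shares and counts of genes have no direction that could reverse. A ratio would have reversed only with more loops or PETs in the PDS list than in the mock list. Over all loops of both lists the ratio of loop numbers was 0.283, so a reversal was unlikely from the start. Among the 41, the ratio without the 5 genes of repeated start site sequence could not move, because these genes had no loop. At splicing factor genes the ratio of loop numbers was between 0.0652 and 0.205. With a PET minimum of 4 in both lists, the ratio of loop numbers was 0.0690, the ratio of PETs 0.0620, the share of mock loops in both lists 4.60% and the genes with a mock loop 31. With a minimum of 5, the ratios were 0.0652 and 0.0559, 20 genes had a mock loop and 19 of them no PDS loop. At all protein-coding promoters the ratio of loop numbers was 0.176 and 0.125 under the same minimums, in each case above that of the splicing factor genes. At a minimum of 4, 0.176 lay above the interval of the splicing factor genes (0.0308 to 0.154). At a minimum of 5 they had 46 mock and 3 PDS loops, and 0.125 lay inside their interval (0.0215 to 0.198). With loops up to 20 kb alone, a choice made after seeing the data, their ratio of loop numbers was 0.205 against 0.264 at all promoters, within the interval. Without HNRNPC the ratio of PETs was 0.0870. Without chromosomes 2, 6, 14, 16, 17 and 20, 34 genes had a mock loop, since fewer genes were counted. Anchors extended by 5 kb raised the share in both lists to 25.4%, because fewer loops then count as different. This was not computed for all promoters. With canonical start sites in the other anchor, 20.2% of mock loops reached another promoter. The share of genes with a motif was 81.6% with spacers up to 12 bases and 26.3% within 250 bp.

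No paired analysis was possible because the lists give no values per replicate, and leaving out a replicate was not run for the same reason. Depth limits single loops: 59.2% of mock loops at splicing factor genes had 3 PETs, so their absence after PDS can be a loss of 1 PET.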
